A study of Homo sapiens with 4 samples.

Results

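A set of 10 genes of the alveolar surfactant system and of the lung lineage was examined in 2 lung adenocarcinoma cell lines after silencing of TAZ: NKX2-1, FOXA2, GATA6, SFTPB, SFTPC, SFTPD, ABCA3, LAMP3, NAPSA and SLC34A2. They were chosen by name with earlier results of these data known, so their counts beside those of all genes are descriptive. All 10 had a probe set that the platform's annotation assigns to a single gene symbol, out of 18377 such genes. The 4 groups were H441 cells with siTAZ, H441 cells with siNTC (the control siRNA), A549 cells with siTAZ and A549 cells with siNTC, all collected 48 h after lipid transfection, with 1 array per group. A549 and H441 are single established human lines, and the sequences of the siRNAs are not known here. All values are log2 RMA signals made by the authors, so 1 unit is a 2-fold difference, and dim probe sets give compressed differences. The median over all probe sets and arrays was 6.13, and a gene under it on both arrays of a line is called dim here.

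Pulmonary surfactant is the lipid and protein film that lowers surface tension in the alveolus, and it is made by type II alveolar epithelial cells. These cells store it in lamellar bodies, lysosome-related organelles filled with phospholipid, and the transcription factors NKX2-1, FOXA2 and GATA6 act on many of the genes needed for it. NKX2-1 and NAPSA are also diagnostic markers of lung adenocarcinoma. TAZ, the transcriptional co-activator encoded by WWTR1, works with TEAD factors and has been reported to bind NKX2-1 and to raise the activity of a surfactant protein C promoter in reporter assays.

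WWTR1 had signals of 7.47 with siTAZ and 9.61 with siNTC in H441, and 7.64 with siTAZ and 10.04 with siNTC in A549, so the labels match the targeted gene in both lines. The median signal of the H441 siTAZ array was 6.25, against 6.17 on the H441 siNTC array, and those of the A549 arrays were 6.06 and 6.05. YAP1, the paralog of WWTR1, had differences of 0.10 in H441 and 0.21 in A549, and TEAD1 -0.31 in H441 and -0.24 in A549. Of the marker lists of other cell types, 3 of 8 club and mucous, 1 or 2 of 5 ciliated, 3 or 4 of 5 basal and 2 of 6 fibroblast and macrophage genes reached the table median on each array. The club cell secretory gene SCGB1A1 and the leukocyte gene PTPRC were below it on all 4 arrays, whereas other genes of the same lists were above it. AGR2, of the club and mucous list, had 10.65 to 11.02 over the 4 arrays. Of the fibroblast and macrophage list, COL1A1 had 7.31 to 8.71, and CD14 had 7.94 with siTAZ and 7.22 with siNTC in A549. The mean levels of these lists on the siTAZ and siNTC arrays of H441 were 6.57 and 6.51 for club and mucous genes, 6.19 and 6.03 for ciliated genes, 7.20 and 7.08 for basal genes, and 6.22 and 6.06 for fibroblast and macrophage genes. On the siTAZ and siNTC arrays of A549 the same lists had 6.47 and 6.37, 6.03 and 5.99, 6.42 and 6.36, and 6.27 and 6.09. The part of these shifts in the results on the 10 genes was not tested.

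The start regions of the 3 genes that the results turn on most are shown here as context, since SFTPB, SLC34A2 and NKX2-1 had the largest siTAZ differences of the 10 in H441. They are RefSeq windows (GRCh38.p14) of the 250 bases before an annotated start, written 5′ to 3′ on the gene's strand. Capitals mark 4 short motifs searched on both strands: TCAAG (a core seen in NKX2-1 sites), TGTTTA and TGTTTG (forkhead cores, as bound by FOXA2) and GGAATG (the TEAD core). The letters were chosen after the windows had been read. SFTPB and NKX2-1 each have 1 further window, upstream of the one printed. The further SFTPB window held none of the 4 motifs. That of NKX2-1 held TGTTTG from base -241 to -236, counted back from its own start, and no TGTTTA.
SFTPB, minus strand, chr2:85668200-85668449: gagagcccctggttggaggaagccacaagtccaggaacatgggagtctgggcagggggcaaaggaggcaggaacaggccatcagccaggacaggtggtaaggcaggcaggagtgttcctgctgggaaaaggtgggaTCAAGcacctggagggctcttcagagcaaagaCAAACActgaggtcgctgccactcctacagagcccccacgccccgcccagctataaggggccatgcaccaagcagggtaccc
SLC34A2, plus strand, chr4:25656214-25656463: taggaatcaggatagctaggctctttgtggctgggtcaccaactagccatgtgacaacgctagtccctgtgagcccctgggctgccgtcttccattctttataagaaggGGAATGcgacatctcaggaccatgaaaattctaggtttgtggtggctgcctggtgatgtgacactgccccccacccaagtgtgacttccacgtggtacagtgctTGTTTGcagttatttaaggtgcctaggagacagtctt
SLC34A2, plus strand, chr4:25655601-25655850: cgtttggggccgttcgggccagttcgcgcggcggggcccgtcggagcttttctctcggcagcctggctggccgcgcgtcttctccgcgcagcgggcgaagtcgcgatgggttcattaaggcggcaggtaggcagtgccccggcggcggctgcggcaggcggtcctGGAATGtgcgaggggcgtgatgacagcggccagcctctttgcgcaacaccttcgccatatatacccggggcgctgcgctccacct
NKX2-1, minus strand, chr14:36519557-36519806: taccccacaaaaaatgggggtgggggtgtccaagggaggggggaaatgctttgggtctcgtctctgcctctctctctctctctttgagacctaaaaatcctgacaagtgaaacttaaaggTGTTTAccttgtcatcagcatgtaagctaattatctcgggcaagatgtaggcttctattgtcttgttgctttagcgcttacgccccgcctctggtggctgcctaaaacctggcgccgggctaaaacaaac

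The printed SFTPB window held TCAAG from base -114 to -110, counted back from the start, and TGTTTG on the opposite strand from -82 to -77, which reads CAAACA as printed. Both SLC34A2 windows held GGAATG on the printed strand, at -141 to -136 and at -85 to -80. The downstream SLC34A2 window, with the GGAATG at -141, also held TGTTTG at -37 to -32, and the printed NKX2-1 window held TGTTTA at -130 to -125. Windows were found for 7 of the 10 genes, 11 windows in all. Of the 11, 3 held TCAAG, 2 held TGTTTA, 4 held TGTTTG and 2 held GGAATG, against 29.2%, 11.0%, 12.8% and 11.9% of the 35116 windows of all genes. Counted by gene, GGAATG was found in 1 of the 7, SLC34A2. Since the letters were chosen after the windows had been read, these shares are context and no test. In a GATA6 window the 2 forkhead cores overlapped, and no other matches did. A match describes letters only, and no binding was measured.

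In H441, 9 of the 10 genes had a higher signal with siTAZ than with siNTC, against 56.3% of all genes, and SFTPB and SLC34A2 differed most. SFTPD and GATA6 differed by only 0.01, and the count was 7 of the 10 after median centring. Over both lines 0 of the 10 passed the limma test, against 2.47% of all genes tested, so none is reported as changed by siTAZ. Within a line the values are single arrays without replicates and have no test. All differences between the siRNAs are log2 siTAZ signals minus log2 siNTC signals.

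**Figure D1:**
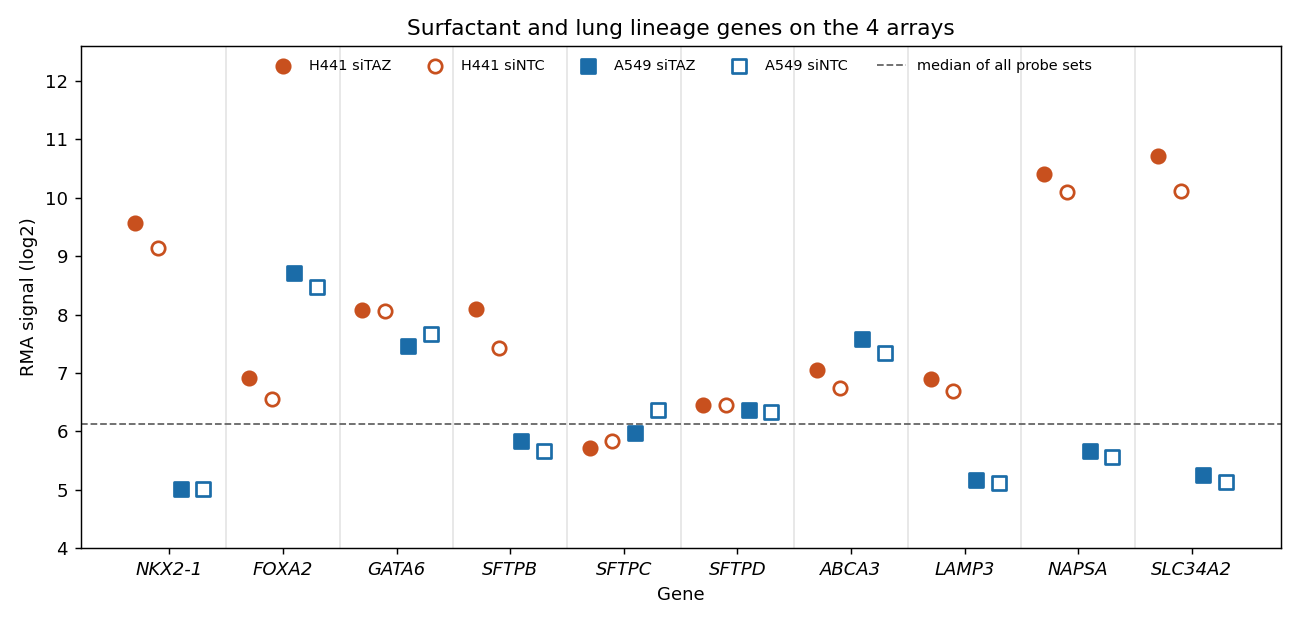
Log2 RMA signal of the 10 genes (x axis) on each of the 4 arrays (y axis); filled symbols are siTAZ, open symbols siNTC, circles H441 and squares A549, and the dashed line is the median of all probe sets (6.13). NKX2-1, NAPSA and SLC34A2 lay between 9.14 and 10.71 in H441 and between 5.01 and 5.67 in A549, whereas FOXA2 and ABCA3 were higher in A549.

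Of the transcription factors, NKX2-1, the homeodomain factor that specifies lung and thyroid, had 9.57 with siTAZ and 9.14 with siNTC in H441, a difference of 0.43. In A549 it was dim, with 5.01 with siTAZ and 5.02 with siNTC. FOXA2, a forkhead factor of foregut endoderm, had 6.92 with siTAZ and 6.56 with siNTC in H441, and 8.72 with siTAZ and 8.48 with siNTC in A549. It was higher with siTAZ in both lines, by 0.37 in H441 and 0.24 in A549, while its level was greatest on the A549 arrays. GATA6, a zinc-finger factor of lung and gut epithelium, had 8.08 with siTAZ and 8.06 with siNTC in H441, and 7.47 with siTAZ and 7.67 with siNTC in A549. Its difference in H441, 0.01, was -0.07 after median centring of the arrays. By the limma fit over both lines, NKX2-1 had 0.21 ± 0.13 (SE, 2 lines, limma adjusted p = 0.52), FOXA2 0.30 ± 0.12 (limma adjusted p = 0.22) and GATA6 -0.10 ± 0.12 (limma adjusted p = 0.82).

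Of the surfactant proteins, SFTPB, the hydrophobic protein needed for the surface film and for lamellar body structure, had 8.09 with siTAZ and 7.42 with siNTC in H441, which is 1.60-fold higher. In A549 it was dim, with 5.83 with siTAZ and 5.66 with siNTC. The H441 siTAZ array was thus the highest of the 4 and the A549 siNTC array the lowest. In H441, 24 of the 11911 genes that were not dim there had a larger difference than SFTPB. Over both lines SFTPB had 0.42 ± 0.13 (SE, 2 lines, limma adjusted p = 0.089), the smallest adjusted p of the 10 genes, and it ranged from 0.069 to 0.27 over 6 alternative filters, scalings and uses of probe sets.

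SFTPC, the other hydrophobic surfactant protein and the most specific of them for type II cells, was dim in H441 and close to the table median in A549. It had 5.71 with siTAZ and 5.84 with siNTC in H441, and 5.98 with siTAZ and 6.36 with siNTC in A549, where 1 of the 2 arrays reached the table median. In the deposited values it was the only gene of the 10 that was lower with siTAZ in both lines, with differences of -0.13 in H441 and -0.38 in A549. After median centring GATA6 was lower in both as well, with -0.07 in H441 and -0.21 in A549. Over both lines SFTPC had -0.25 ± 0.12 (SE, 2 lines, limma adjusted p = 0.36). SFTPD, a collectin of innate defence, had 6.46 with siTAZ and 6.45 with siNTC in H441, and 6.37 with siTAZ and 6.33 with siNTC in A549. The 4 values thus lay within 6.33 to 6.46, and the sign of the SFTPD mean turned with the scaling.

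Of the lamellar body and processing genes, ABCA3, the lipid pump of the lamellar body membrane, had 7.06 with siTAZ and 6.74 with siNTC in H441, and 7.59 with siTAZ and 7.35 with siNTC in A549. It was not dim in either line, and both lines had a higher value with siTAZ, by 0.33 in H441 and 0.24 in A549. LAMP3, a lysosome-associated membrane protein found on lamellar bodies, had 6.89 with siTAZ and 6.70 with siNTC in H441, against 5.16 with siTAZ and 5.12 with siNTC in A549, where it was dim. NAPSA, the aspartic protease that takes part in maturation of surfactant protein B, had 10.40 with siTAZ and 10.10 with siNTC in H441, and 5.67 with siTAZ and 5.57 with siNTC in A549, where it was dim as well. SLC34A2, the sodium-phosphate cotransporter that type II cells use to recover phosphate from surfactant lipid, had 10.71 with siTAZ and 10.12 with siNTC in H441, 1.51-fold higher. In A549 it was dim, with 5.26 with siTAZ and 5.13 with siNTC. Over both lines SLC34A2 had 0.36 ± 0.13 (SE, 2 lines, limma adjusted p = 0.15), ABCA3 0.28 ± 0.12 (limma adjusted p = 0.26), NAPSA 0.20 ± 0.12 (limma adjusted p = 0.50) and LAMP3 0.11 ± 0.12 (limma adjusted p = 0.78).

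**Figure D2:**
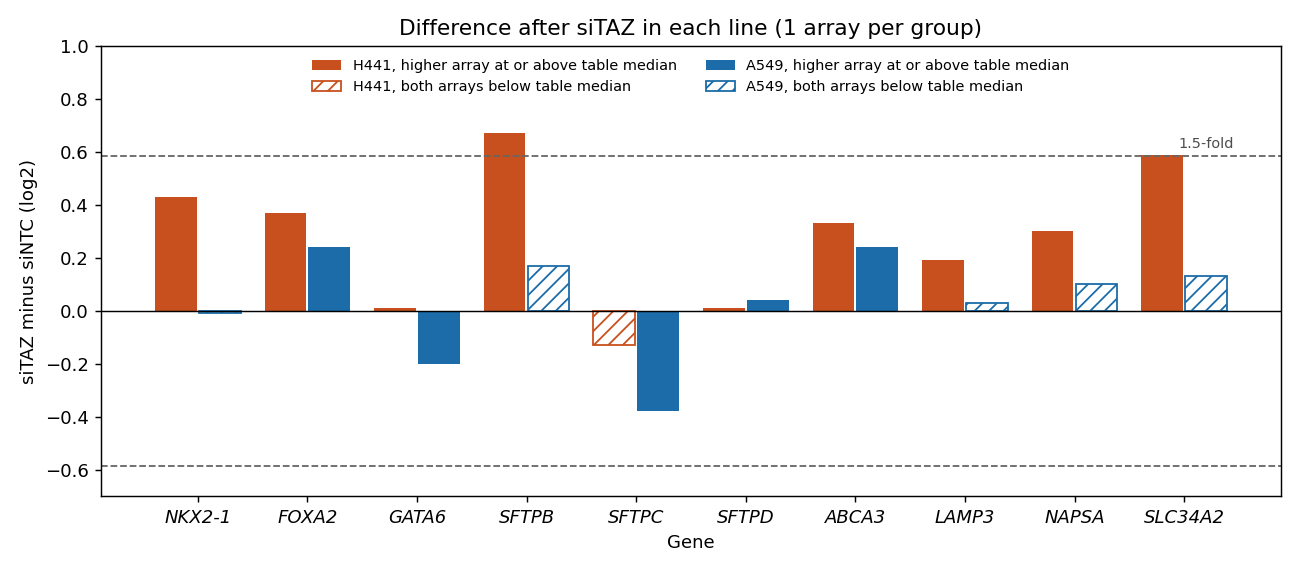
Difference between the siTAZ and siNTC arrays (log2, y axis) for each of the 10 genes in H441 and A549; each bar rests on 1 array per group, hatched bars mark genes whose arrays were both below the table median in that line, and dashed lines mark 1.5-fold. SFTPB (0.67) and SLC34A2 (0.59) reached 1.5-fold in H441, and no gene did in A549.

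Counted together, 9 of the 10 genes were not dim in H441, and all 9 of these had a higher signal with siTAZ, where 50.8% of the 11911 such genes did. Their median difference was 0.33, against 0.00 over all of them. SFTPD and GATA6 differed by only 0.01, and the count was 7 of 9 after median centring and 8 of 9 after quantile normalization or cyclic loess. At least 1.5-fold higher were 2 of 9, against 0.479% of all genes in H441, with 0 of 9 at least 1.5-fold lower (0.974% of all genes). It was 1 of 9 after median centring, which left SLC34A2 at 0.51. In A549 5 of the 10 were not dim, of which 3 had a higher and 2 a lower signal (50.9% of the 11405 such genes were higher), with a median of 0.04 against 0.01. None of the 10 differed 1.5-fold in A549 in either direction, where 1.76% of genes were at least 1.5-fold higher and 1.07% lower. With dim genes kept, 7 of the 10 were higher in A549, against 50.5% of all genes, and 9 of the 10 in H441, against 56.3%. Since the 10 were chosen with earlier results of these data known, none of these shares tests the set.

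Differences in H441 moved with signal level. Among H441 genes at levels of 4 to 6 the median difference was 0.06, with 66.8% of genes higher with siTAZ, and at 6 to 8 it was 0.05, with 58.8% higher. At 8 to 10 it was -0.02, with 45.4% higher, and at 10 to 15 it was -0.05, with 37.6% higher. SFTPC lay at 4 to 6 and had -0.13, and NKX2-1 and GATA6 lay at 8 to 10 and had 0.43 and 0.01. NAPSA and SLC34A2 lay at 10 to 15 and had 0.30 and 0.59. SFTPB, SFTPD, ABCA3, LAMP3 and FOXA2 lay at 6 to 8, with a median difference of 0.33. In A549 the median differences of these ranges were between 0.00 and 0.02.

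Over both lines, limma called 315 of 12740 genes at an adjusted p under 0.05, or 2.47% (1.19% higher and 1.29% lower with siTAZ), and 0 of these were among the 10. The fit holds the cell line as a block and has 1 residual degree of freedom, so its SE draws mostly on all genes and not on the spread of the gene itself. At an unadjusted limma p under 0.05 there were 5 of the 10, with SFTPB, SLC34A2, FOXA2 and ABCA3 higher and SFTPC lower, against 13.2% of all genes. Both lines had a higher signal with siTAZ for 7 of the 10, SFTPB, SFTPD, ABCA3, LAMP3, NAPSA, SLC34A2 and FOXA2, against 30.3% of the genes tested. Of these 7, 4 were dim in A549, and SFTPD dropped out under the other scalings. For 9 of the 10 the difference was larger in H441 than in A549, against 48.2% of the genes tested, SFTPD being the exception. This gap between the lines was 0.51 for SFTPB, 0.46 for SLC34A2 and 0.44 for NKX2-1. It has no test, since a model with that term uses up all 4 arrays, and these 3 genes were dim in A549. LAMP3 and NAPSA were dim there as well, and all 5 passed the filter through H441 alone. Dim probe sets give compressed differences, and the 48.2% is not matched for this, so the count of 9 is descriptive only.

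**Figure D3:**
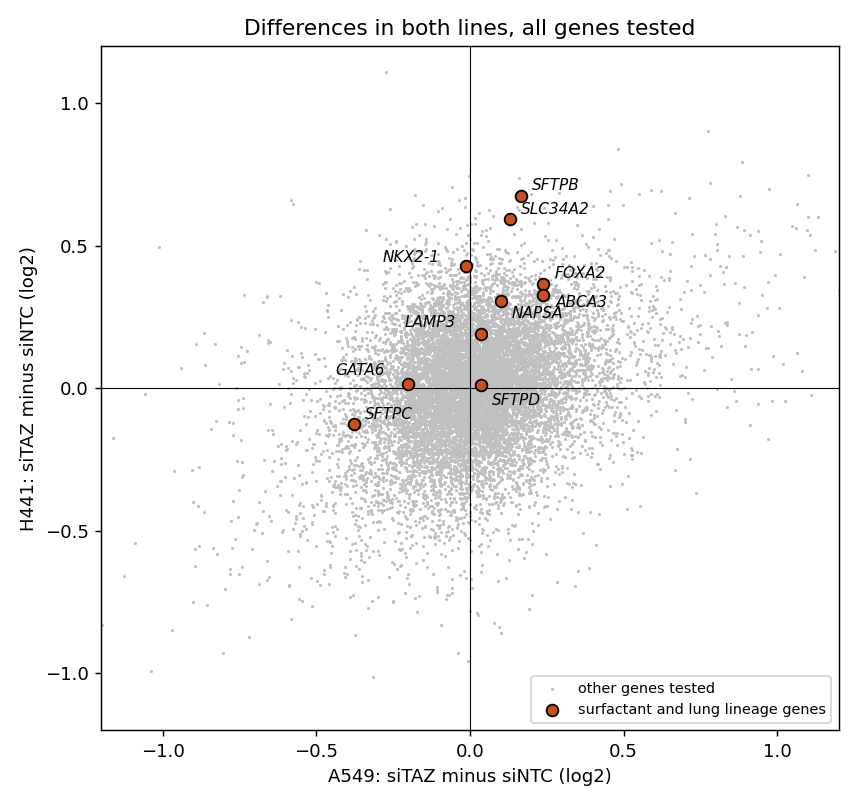
Difference after siTAZ in A549 (x axis, log2) against that in H441 (y axis, log2) for the 12740 genes tested, in grey, with the 10 surfactant and lung lineage genes labelled; 25 genes lie outside the axes. SFTPB and SLC34A2 stand at the upper edge of the cloud in H441 near 0.1 to 0.2 in A549, and SFTPC lies lower in both lines.

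The lines differed more than the siRNAs did (r = 0.916 between the siNTC arrays of H441 and A549 over all probe sets, against 0.995 between the H441 arrays and 0.994 between the A549 arrays), and the 10 genes went in both directions. SLC34A2 was 37.2-fold, NAPSA 24.8-fold and NKX2-1 20.3-fold higher in H441 than in A549, with log2 differences (H441 minus A549, mean over both siRNAs) of 5.22 ± 0.13, 4.63 ± 0.12 and 4.34 ± 0.13 (moderated SE, 2 arrays per line). At least 16-fold higher in H441 were 0.510% of the 12740 genes. SFTPB was 4.01-fold and LAMP3 3.14-fold higher in H441. All 5 were dim in A549, so these folds may be understated. FOXA2 went the other way, 3.62-fold lower in H441, with log2 means of 6.74 in H441 and 8.60 in A549, and ABCA3 was 1.48-fold lower in H441.

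In the limma fit, 9 of the 10 passed for the cell line, 6 higher and 3 lower in H441, against 71.9% of all genes (52.8% higher and 19.0% lower), so the count itself is near the background. The limma adjusted p was 6.5e-21 for SLC34A2, 1.9e-20 for NAPSA, 2.0e-19 for NKX2-1, 1.0e-12 for SFTPB, 8.3e-12 for LAMP3 and 8.7e-13 for FOXA2. It was 0.00015 for ABCA3, 0.0054 for SFTPC (-0.39 ± 0.12 SE) and 0.00063 for GATA6 (0.50 ± 0.12 SE). SFTPD had 0.10 ± 0.12 (SE, limma adjusted p = 0.43). These p-values rest on 2 arrays per line that differ in siRNA and do not measure the spread between cultures. The filter admitted NKX2-1, SFTPB, LAMP3, NAPSA and SLC34A2 through H441 alone and SFTPC through A549 alone. With no filter 9 of the 10 passed as well, against 58.7% of 18377 genes. Over all tested genes the median of H441 minus A549 was 0.31, and 0.15 after median centring, 0.00 after quantile normalization and -0.02 after cyclic loess. All calls split into 6733 higher and 2425 lower in H441, against 5244 higher of 8353 calls, 4141 of 8209 and 3984 of 8058 in those 3 scalings. GATA6 lost its call after quantile normalization (0.17, limma adjusted p = 0.21) and cyclic loess (0.16, limma adjusted p = 0.22).

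**Figure D4:**
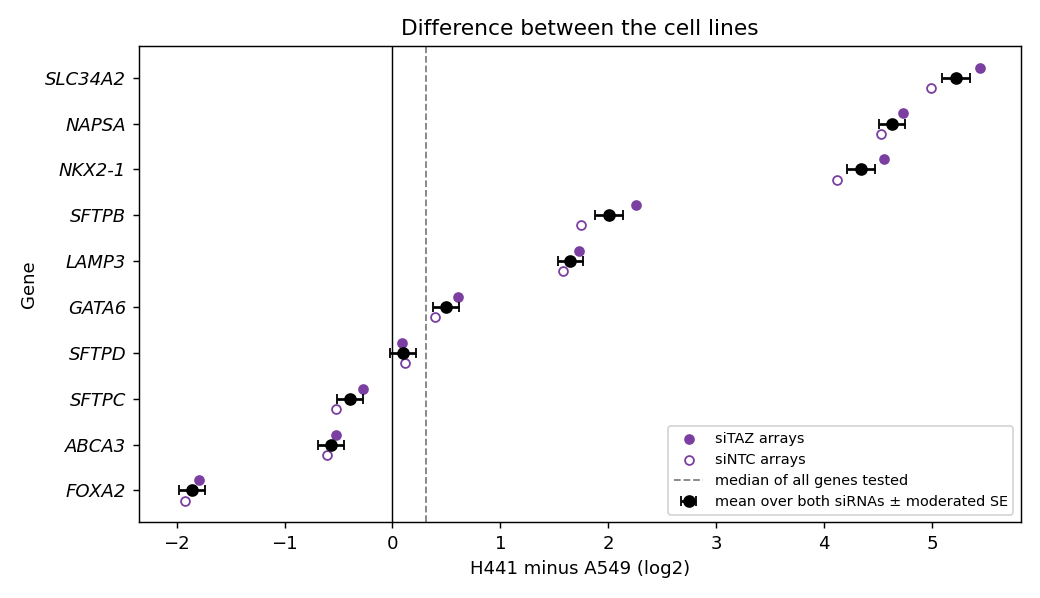
H441 minus A549 (x axis, log2) for each of the 10 genes; black points are means over both siRNAs with the moderated SE of the limma fit, filled and open purple points are the siTAZ and siNTC arrays alone, and the dashed line is the median of all genes tested (0.31). SLC34A2, NAPSA and NKX2-1 stand above 4 and FOXA2 at -1.86, with the siTAZ arrays farther right than the siNTC arrays for every gene but SFTPD.

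Across the 4 arrays, after each gene was centred on its own mean, the profiles nearest to NKX2-1 by Euclidean distance over 12740 genes were those of EMP1 (0.13 on the log2 scale), MCTP2 (0.15), CDH11 (0.24), TRIM2 (0.25) and NAPSA (0.31), against a median distance of 4.05. NAPSA was thus the single gene of the 10 among the nearest 5 of NKX2-1. Nearest to SFTPB were PRKCH (0.17), CD82 (0.20), SLC12A8 (0.21), HRH1 (0.22) and SCNN1B (0.23), against a median of 1.78. PRKCH, a protein kinase C gene, had 10.05 with siTAZ and 9.34 with siNTC in H441, and 7.72 with siTAZ and 7.78 with siNTC in A549. SCNN1B encodes a subunit of the epithelial sodium channel, which clears fluid from the airspace. Nearest to SLC34A2 were ICAM1 (0.23), MMP14 (0.27), MUC1 (0.32), MAPK13 (0.32) and MUC21 (0.39), against a median of 4.93. These profiles rest on 4 arrays and are set almost entirely by the difference between the lines.

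Among 20 other surfactant and type II cell genes, 17 had a probe set and 10 were tested, and 0 passed limma for siTAZ (2.47% of all genes did), with 3 at an unadjusted p under 0.05 (13.2% of all genes). Of the 9 that were not dim in H441, 7 had a higher signal with siTAZ (50.8% of all genes there), with a median of 0.22 against 0.00, and of the 9 that were not dim in A549, 8 did (50.9%), with a median of 0.19 against 0.01. This list and those below were also chosen with earlier results of these data known, so their shares are descriptive and test no set. SFTA2, a surfactant-associated secreted protein gene, had 8.71 with siTAZ and 8.19 with siNTC in H441, and 5.23 with siTAZ and 5.47 with siNTC in A549. LPCAT1, the acyltransferase that makes dipalmitoyl phosphatidylcholine for surfactant, had 10.77 with siTAZ and 10.33 with siNTC in H441, and 8.89 with siTAZ and 8.72 with siNTC in A549. MUC1, an epithelial mucin, had differences of 0.27 in H441 and 0.41 in A549, and AQP3, a water and glycerol channel, 0.20 in H441 and 0.58 in A549. The limma adjusted p of these 4 lay between 0.11 for AQP3 and 0.77 for SFTA2. Between the lines, MUC1 differed by 5.32 and FGB, a fibrinogen chain of liver-type secretion, by -4.92 (H441 minus A549), beside 5.22 for SLC34A2. FGB was dim in H441 and SLC34A2 in A549, so their differences may be understated, and these 3 are given in no order.

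Of 23 other lung and endoderm transcription factors, 18 were tested and 0 passed limma for siTAZ, against 2.47% over every gene tested. At an unadjusted p under 0.05 there were 3, against 13.2% over every gene tested. In H441 9 of 17 had a higher signal with siTAZ (50.8% of all genes), with a median of 0.14 against 0.00, and in A549 9 of 17 as well (50.9%), with a median of 0.00 against 0.01. CEBPD, a C/EBP factor, had 8.61 with siTAZ and 8.29 with siNTC in H441, against 7.88 with siTAZ and 8.54 with siNTC in A549. ETV5, an ETS factor that maintains type II cells in the mouse, had differences of 0.30 in H441 and 0.38 in A549 (limma adjusted p = 0.14). SPDEF, a goblet cell factor, had 0.14 in H441 and 0.69 in A549 (adjusted p = 0.10), and NFIB, a nuclear factor I gene needed for lung maturation in the mouse, had -0.35 in H441 and -0.43 in A549 (adjusted p = 0.087).

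Type I alveolar genes, which mark the flat gas-exchange cells, held the only calls among these lists: GPRC5A and CAV1 fell and EMP2 rose over both lines. These were 3 of 8 tested (1 higher and 2 lower, against 1.19% and 1.29% of all genes). The list was chosen with earlier results of these data known, so its share is descriptive and does not test the cell type. GPRC5A, a retinoic acid-induced receptor gene, had -0.62 ± 0.12 (SE, 2 lines, limma adjusted p = 0.0046), and EMP2, a membrane protein gene, 0.60 ± 0.13 (limma adjusted p = 0.0087). CAV1, caveolin 1, had -0.59 ± 0.12 (limma adjusted p = 0.0049). All 3 lost the call after cyclic loess (adjusted p of 0.083 for CAV1, 0.099 for EMP2 and 0.11 for GPRC5A), and EMP2 (0.081) and GPRC5A (0.050) also without the filter on dim genes. AQP5, a water channel, had 0.39 in H441 and -0.02 in A549 (adjusted p = 0.59). AGER, HOPX, RTKN2 and IGFBP2, also tested, had 0.14, 0.04, 0.19 and 0.07 over both lines (limma adjusted p = 0.69, 0.92, 0.54 and 0.88). Of the type I genes that were not dim, 6 of 8 were higher with siTAZ in H441 (50.8% of all genes). In A549 4 of 7 were higher (50.9%), so the list did not move in 1 direction. In the other 5 lists 0 genes passed limma for siTAZ: 3 club and mucous, 3 ciliated, 4 basal, 6 gastric and hepatic and 3 fibroblast and macrophage genes were tested, with 0, 1, 0, 1 and 2 at an unadjusted p under 0.05 (13.2% of all genes). COL1A1, a fibrillar collagen, came nearest, with differences of 0.44 in H441 and 0.41 in A549 (limma adjusted p = 0.054).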

How the data were processed

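Log2 RMA signals per probe set were deposited by the authors for 4 arrays. RMA is named per the submitters' processing notes, without a version. Joint normalization of the arrays, the annotation and the genome build are not stated. The log2 scale was read from the values, 4.20 to 14.83 over 28869 probe sets. The precision is limited by 1 array per group.

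Genes were named through the platform's annotation: 19310 probe sets had 1 symbol, 1752 several and 7807 none there, and 19279 of the 19310 matched the GRCh38.p14 gene table by Entrez identifier. For the 685 genes with several probe sets the one with the highest mean was used. Each of the 10 genes had 1. Another probe set shared by SLC34A2 and other genes was not used.

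limma 3.58.1 in R 4.3.3 (lmFit, eBayes, two-sided, Benjamini-Hochberg over all tested genes) was fitted with terms for cell line and siRNA on the 12740 genes whose highest array reached the table median of 6.13, with a prior of 22.3 degrees of freedom. The fit was run on simulated arrays with independent noise of equal spread in every gene. The real H441 differences moved with signal level, so that run checks the code and not the fit to these arrays. Alternatives were median centring, quantile normalization, cyclic loess, the mean of probe sets, no filter, a filter at the 75th percentile, no cell line term, single lines and single siRNAs. Named were the 10 genes, WWTR1, YAP1, TEAD1, up to 4 tested genes per list with the largest mean absolute siTAZ difference, the 5 nearest profiles of 3 genes and the 3 genes with the largest difference between lines. SCGB1A1, PTPRC, AGER, HOPX, RTKN2 and IGFBP2 were named after their values were seen. The genes and the 8 other lists were chosen with earlier results of these data known. Listed genes without a single-symbol probe set were not analysed here.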

Additional observations from a re-analysis of the deposited data

Results flagged for a closer look

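The 2 lines had siTAZ differences of opposite sign for 17 of the genes named by the stated rule, and none of these oppositions was tested, since each rests on 1 array per group. The share of opposite signs over all genes tested is not given here, so the 17 are a list and not an excess. Besides NKX2-1, SFTA2, CDH11, MAPK13 and MUC21 were dim in A549, and FOXJ1, FGB, LGALS4 and CD14 were dim in H441. Differences of dim genes are compressed, and several of the differences below are small. Of the 10 surfactant and lineage genes they were NKX2-1, with 0.43 in H441 and -0.01 in A549, where it was dim, and GATA6, with 0.01 in H441 and -0.20 in A549. Of the type II and factor lists they were SFTA2, with 0.51 in H441 and -0.24 in A549, and CEBPD, with 0.32 in H441 and -0.66 in A549. AQP5 had 0.39 in H441 and -0.02 in A549. AGR2, a secretory cell disulfide isomerase gene, had -0.22 in H441 and 0.21 in A549. CAPS had 0.22 in H441 and -0.16 in A549, and FOXJ1, the ciliated cell factor, 0.07 in H441 and -0.31 in A549. ITGB4, integrin beta 4, had 0.29 in H441 and -0.10 in A549. FGB had -0.12 in H441 and 0.32 in A549, LGALS4 had -0.05 in H441 and 0.06 in A549, and CD14, a monocyte receptor gene, had -0.04 in H441 and 0.72 in A549. Of the genes with the nearest profiles they were EMP1, with 0.27 in H441 and -0.09 in A549, CDH11, with 0.64 in H441 and -0.15 in A549, and PRKCH, with 0.71 in H441 and -0.06 in A549. MAPK13 had 0.19 in H441 and -0.07 in A549, and MUC21 had 0.18 in H441 and -0.13 in A549.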

How the results depend on the processing

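None of the 10 genes was called for siTAZ over both lines under the alternative fits that tested it, which were 7 for 6 of the genes and 6 for SFTPC, SFTPD, ABCA3 and LAMP3, which are too dim for the stricter filter, while the count over all genes moved: 315 calls became 142 after quantile normalization, 20 after cyclic loess and 92 with no filter on dim genes. After median centring it was 400, of which 123 were higher, against 151 higher of 315. The fit without the cell line (no replicate block) called 0 genes, with 11 at an unadjusted limma p under 0.05, because the difference between lines then enters the spread. The labels give no replicate numbers, and the cell line is the block of the reported fit. Calls between the lines numbered 5659 under the stricter filter, which tests fewer genes, against 9158. The count of genes higher with siTAZ in A549 was 7 with dim genes kept, against 3, since 10 rather than 5 are then counted. SFTPD turned sign after median centring (-0.02 for siTAZ, -0.05 for H441 minus A549), quantile normalization (-0.01 and -0.09) and cyclic loess (-0.01 and -0.11), and the cause was not tested. Apart from SFTPD, the 10 genes kept their direction in both limma contrasts under these scalings.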
